A study of Mus musculus with 10 samples.

Results

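The genes described here encode the machinery that prepares DNA for replication. They are Mcm2 to Mcm7, which form the replicative helicase, Cdc6 and Cdt1, which load that helicase, Pcna, the sliding clamp of the DNA polymerases, and Cdca7, a zinc finger protein of chromatin remodelling. These 10 genes were listed by name, with earlier results of these data known, and every probe set that the platform annotation gives to 1 of them alone was taken, 26 probe sets of 34945 with a single gene symbol. Of the 26, 22 passed the filter on low signal (a mean over the 10 arrays above 6.06 on the log2 scale used below), among them at least 1 for each of the 10 genes.

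RNA was measured in the liver of 10 mice labelled ApoE-/- on Affymetrix mouse genome arrays, 1 mouse per array. The 5 mice labelled dn-cJun (numbers 16 to 20) were infected with an adenovirus carrying a dominant negative form of cJun, and the 5 control mice (numbers 11 to 15) with an adenovirus carrying GFP, a fluorescent protein. By their labels all 10 mice share the ApoE-/- genotype, which the Apoe signal below contradicts for 5 of them, and an adenoviral infection. The labels give no age, sex, strain, virus dose or time of sampling. cJun pairs with Fos and related proteins to form AP-1, a transcription factor.

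In G1 phase the origin recognition complex, Cdc6 and Cdt1 place the MCM2-7 ring on DNA, a step called licensing. In S phase the ring is activated as the core of the helicase, and Pcna, loaded by replication factor C, tethers the polymerases behind it. Transcription of these genes is driven by E2F factors in cycling cells. Most hepatocytes of an adult liver are quiescent, and the genes are known to be induced when the liver regenerates.

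Signals are given as log2(intensity + 16) after quantile normalization, and a difference as arrays labelled dn-cJun minus control on that scale, with its standard error (SE) and the limma p-value adjusted over all 12736 genes tested (threshold 0.05). A few facts of the whole set of arrays bear on every direction below. Apoe itself was at 15.31 to 15.82 in the arrays labelled dn-cJun and at 9.42 to 10.94 in the control arrays, which goes against the ApoE-/- label of the mice labelled dn-cJun, so the groups also differ in Apoe signal. Jun itself was at 9.84 to 10.82 in the arrays labelled dn-cJun and at 10.18 to 10.73 in the control arrays (-0.07, SE 0.17, limma adjusted p = 0.890), and whether its probe set reads the virus's form of cJun is not known, so it does not check the label. Controls 14 and 15 had Xist, an RNA of the silenced X, at 13.71 and 13.63, against 5.90 to 6.72 on the other 8 arrays. Eif2s3y, a Y-linked gene, was at 5.22 and 4.08 in these controls, against 10.58 to 11.13 on the other 8. Kdm5d, also Y-linked, was at 4.82 and 5.21, against 7.87 to 8.38. By these signals controls 14 and 15 are female and the other 8 arrays male, so the groups also differ in sex. Results are therefore also given without controls 14 and 15 where they move. Control 11 is the array whose extraction entry names Trizol, where the other 9 name Affymetrix, and its deposited median intensity was the highest of the 10 arrays, 127 against 85.3 to 104 on the others. Hepatocyte markers were present as the tissue label says, with all 11 listed markers above the filter and albumin (Alb) between 47790 and 66550 in deposited intensity.

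All 10 genes had lower means in the arrays labelled dn-cJun, with log2 differences between -0.96 and -0.16 and a median of -0.33, where the median of all genes tested was 0.0015. By comparison, 49.7% of all genes tested had a difference below 0. Only Cdca7 passed the threshold, 1 of 10 genes, where 0.432% of all genes tested were called lower. In 6 of the 10, Mcm3, Mcm5, Mcm7, Pcna, Cdt1 and Cdca7, every array labelled dn-cJun lay below every control array, a separation seen in 2.13% of all genes tested. Cdc6 passed the filter only through the control arrays. Of the other 9 genes, 7 were lower at an unadjusted p under 0.05, against 7.47% of all genes tested. In bulk liver, fewer cycling cells and less RNA per cell cannot be told apart.

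**Figure D1:**
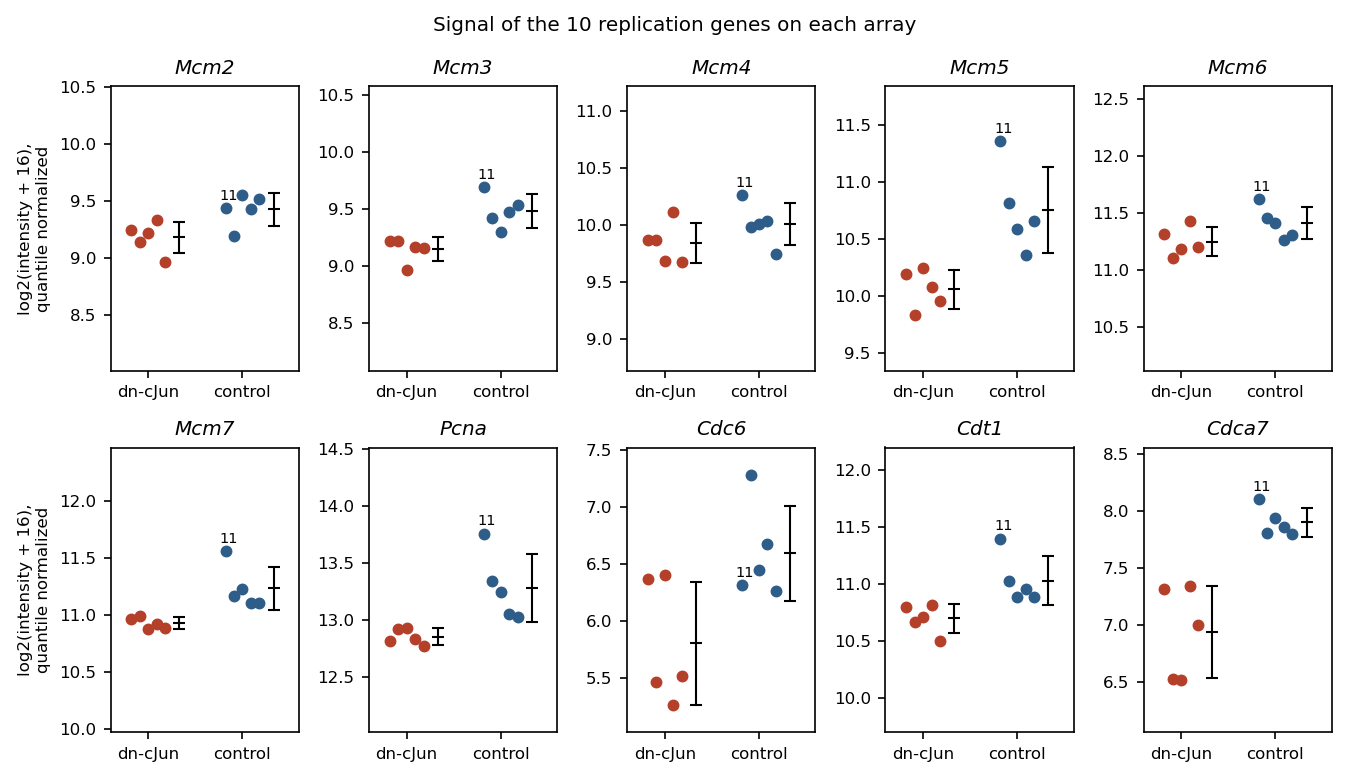
Each panel shows 1 gene, with the log2(intensity + 16) signal of each array as a point (arrays labelled dn-cJun in red, control arrays in blue, each in number order) and the mean with SD of the 5 arrays as a black bar beside them. All panels span the same height on the log2 scale, control 11 is numbered, and the groups are apart in 6 of the 10 genes.

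Cdca7 had the largest difference of the 10 genes. The gene is a target of Myc and E2F, and in humans its loss causes an immunodeficiency with DNA hypomethylation. Its log2 signal was 7.32, 6.52, 6.51, 7.34 and 7.0 in the arrays labelled dn-cJun 16 to 20, against 8.10, 7.80, 7.94, 7.86 and 7.80 in controls 11 to 15. The control arrays were close together and all higher, while the arrays labelled dn-cJun were more spread, with 17 and 18 lowest. Cdca7 fell by 0.96 (SE 0.20, limma adjusted p = 0.0405), to 0.513 of the control signal. This call rests on a narrow margin. With 1 array left out it held in 1 of 10 fits, with limma adjusted p from 0.0445 to 0.0963 and the difference between -1.07 and -0.86. Without controls 14 and 15 the difference was -1.0 (limma adjusted p = 0.0986). Its other probe set, 1445681_at, was below the filter, with a difference of -0.48.

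Among the 6 helicase subunits, Mcm5 had the largest difference by the probe sets used, while with names ending in _x_at or _s_at left out Mcm3 had (-0.52, against -0.38 for Mcm5). Mcm5 lies in the ring beside Mcm2, at the junction where the ring opens to take in DNA. Its signal was 10.19, 9.83, 10.24, 10.07 and 9.95 in the arrays labelled dn-cJun 16 to 20, against 11.35, 10.81, 10.59, 10.35 and 10.65 in controls 11 to 15. The groups did not overlap, dn-cJun 18 and control 14 were the closest pair, and control 11 was the highest control. The difference was -0.69 (SE 0.16, limma adjusted p = 0.0576), a ratio of 0.618. It passed without controls 14 and 15 (-0.86, SE 0.16, limma adjusted p = 0.0452), and without control 11 it was -0.55 (SE 0.11, limma adjusted p = 0.0610). The further probe set 1415945_at gave -0.38 (SE 0.14), and 1459658_at, below the filter, 0.28.

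Mcm3 and Mcm7 were also apart between the groups. The Mcm3 signal was 9.22, 9.22, 8.96, 9.17 and 9.15 in the arrays labelled dn-cJun 16 to 20, against 9.69, 9.42, 9.29, 9.47 and 9.53 in controls 11 to 15. Mcm7 was at 10.96, 10.99, 10.88, 10.92 and 10.89 in the arrays labelled dn-cJun 16 to 20, against 11.56, 11.16, 11.23, 11.10 and 11.10 in controls 11 to 15. In both genes control 11 was the highest array, and the Mcm7 values of the arrays labelled dn-cJun lay close together. The difference was -0.34 for Mcm3 (SE 0.10, limma adjusted p = 0.138) and -0.30 for Mcm7 (SE 0.09, limma adjusted p = 0.143). Neither passed the threshold.

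Mcm2, Mcm4 and Mcm6 overlapped between the groups. Mcm2 had a median of 9.22 in the arrays labelled dn-cJun (8.97 to 9.33) and 9.44 in the control arrays (9.19 to 9.55), with a difference of -0.24 (SE 0.10, limma adjusted p = 0.280). Mcm4 and Mcm6 belong with Mcm7 to the subcomplex that unwinds DNA on its own in vitro. Mcm4 ranged from 9.68 to 10.11 in the arrays labelled dn-cJun and from 9.74 to 10.26 in the control arrays, and Mcm6 from 11.11 to 11.43 in the arrays labelled dn-cJun and from 11.26 to 11.62 in the control arrays. Both differences were -0.16 (SE 0.11 for Mcm4 and 0.09 for Mcm6, limma adjusted p = 0.537 and 0.404). Without control 11 the difference of Mcm4 was -0.10, and without controls 14 and 15 that of Mcm6 was -0.25. The further tested probe set of Mcm4, 1436708_x_at, gave a larger difference, -0.41 (SE 0.22). Those of Mcm6 (1438852_x_at) and Mcm2 (1434079_s_at) gave -0.13 (SE 0.13) and -0.17 (SE 0.16). The 6 subunits assemble into the ring in equal numbers, and whether their mRNA differences differ from each other was not tested.

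Pcna was measured by 1 probe set. The signal was 12.82, 12.93, 12.94, 12.83 and 12.77 in the arrays labelled dn-cJun 16 to 20, against 13.76, 13.34, 13.24, 13.06 and 13.03 in controls 11 to 15. The arrays labelled dn-cJun were tightly grouped (12.86 ± 0.07, SD, n = 5) and all lower, while the control arrays were spread (13.29 ± 0.30, SD, n = 5), with controls 14 and 15 nearest to the other group. The difference was -0.43 (SE 0.12, limma adjusted p = 0.113). Without controls 14 and 15 it was -0.60 (SE 0.11, limma adjusted p = 0.0367), and without control 11 it was -0.31 (SE 0.08, limma adjusted p = 0.102).

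The loaders Cdt1 and Cdc6 differed in how well they were measured. Cdt1, which brings the MCM ring to origins and is held in check by geminin, was at 10.80, 10.66, 10.70, 10.82 and 10.50 in the arrays labelled dn-cJun 16 to 20, against 11.39, 11.02, 10.88, 10.96 and 10.88 in controls 11 to 15. All 5 arrays labelled dn-cJun lay below the controls, with dn-cJun 19 just under controls 13 and 15, and the difference was -0.33 (SE 0.10, limma adjusted p = 0.158). Its probe set 1424144_at, also apart between the groups, gave -0.39 (SE 0.14). Cdc6, an ATPase of the loading step, was dim, with 6.37, 5.47, 6.41, 5.26 and 5.52 in the arrays labelled dn-cJun 16 to 20, against 6.32, 7.29, 6.45, 6.68 and 6.26 in controls 11 to 15. In the arrays labelled dn-cJun 16 and 18 were high and the other 3 low, and the groups overlapped (-0.79, SE 0.33, limma adjusted p = 0.277). At this low signal the difference depends on the pseudocount, at -1.03 with 1 and -0.47 with 64 in place of 16. Its mean in the arrays labelled dn-cJun, 5.81, was below the filter level of 6.06, and the gene passed the filter through the control arrays, at 6.6.

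With every probe set as its own unit, all 22 that passed the filter had a lower mean in the arrays labelled dn-cJun, with a median difference of -0.33, where 50.6% of the 22847 probe sets tested had a difference below 0. In that fit 2 of the 22 passed as lower, against 0.451% of all probe sets tested, 1428069_at of Cdca7 (limma adjusted p = 0.0376) and 1449705_x_at of Mcm3 (-0.62, SE 0.13, limma adjusted p = 0.0402). The signal of 1449705_x_at was 8.78, 8.39, 8.34, 8.25 and 8.19 in the arrays labelled dn-cJun 16 to 20, against 9.22, 9.03, 8.89, 9.05 and 8.88 in controls 11 to 15, with dn-cJun 16 nearest to the controls. The 5 probe sets of Mcm3 ranged from -0.62 to -0.29 and the 4 of Mcm7 from -0.33 to -0.05. In 8 of the 22 the groups did not overlap, against 1.93% of all probe sets tested. Of the 4 probe sets below the filter, which were not tested, 3 had a higher mean in the arrays labelled dn-cJun, at 0.25 to 0.35. A name ending in _x_at or _s_at marks probes that can match related transcripts, and 9 of the 22 carry one.

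**Figure D2:**
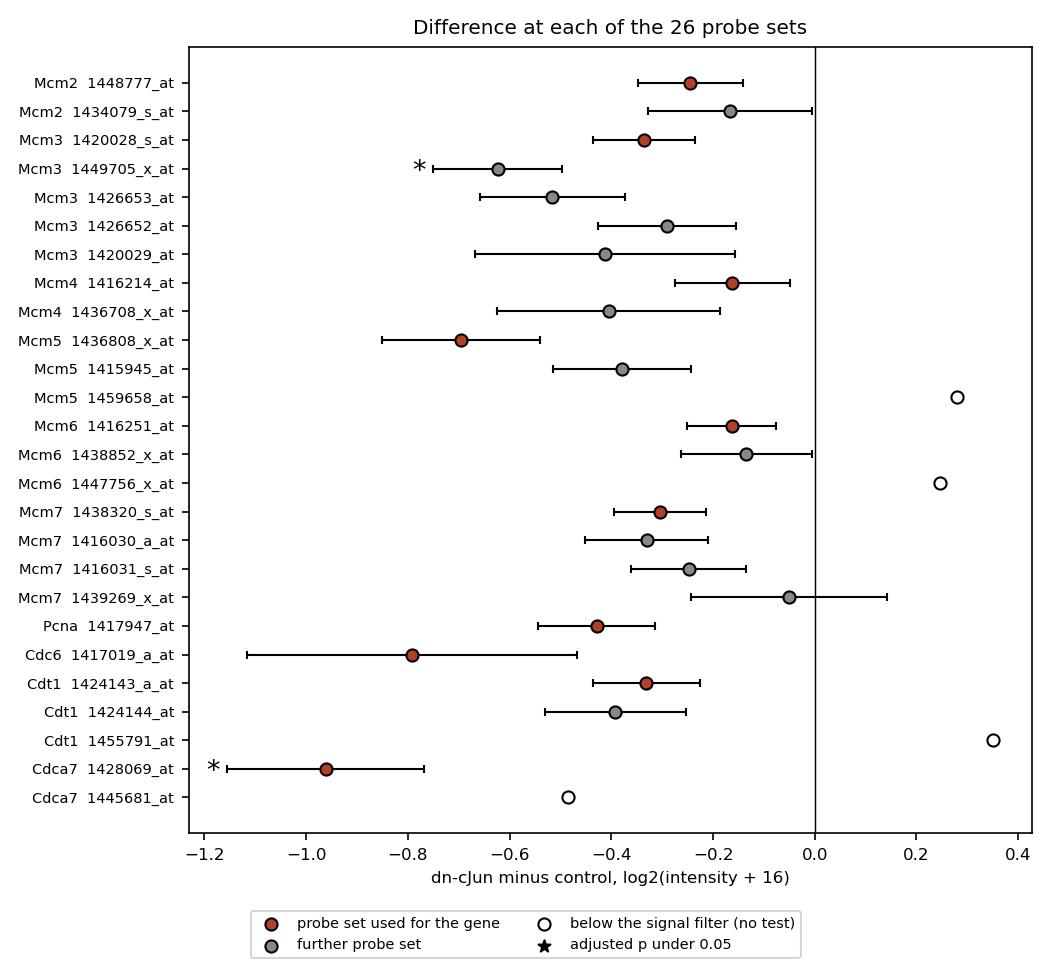
Points are the differences of the 26 probe sets, arrays labelled dn-cJun minus control on the log2(intensity + 16) scale, with bars of 1 SE from the probe set fit. The 22 tested probe sets all lie left of 0, from -0.96 for Cdca7 to -0.05 for 1439269_x_at of Mcm7, and 3 of the 4 below the filter lie right of it.

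The control arrays differed among themselves in these genes, and 1 array stood out. Control 11 was the highest of the 10 arrays in 8 of the 10 genes and in 19 of the 22 probe sets, where it was highest in 15.2% of all genes and 14.7% of all probe sets tested. It exceeded the mean of the other controls by 0.75 for Mcm5, 0.59 for Pcna and 0.46 for Cdt1, but by 0.01 for Mcm2, and for Cdc6 it was lower (-0.35). The mean of the 10 genes, each centred on its own mean over the arrays, was -0.08, -0.32, -0.22, -0.16 and -0.33 in the arrays labelled dn-cJun 16 to 20, against 0.46, 0.26, 0.17, 0.13 and 0.09 in controls 11 to 15. Controls 14 and 15 were thus the controls nearest to the arrays labelled dn-cJun, and control 11 the farthest. In 8 of the 10 genes the SD was smaller in the arrays labelled dn-cJun than in the control arrays, against 53.4% of all genes tested. Without control 11 all 10 genes still had lower means, with a median of -0.26, and none passed, where 30 of 12732 genes tested were called lower. In that limma fit 8 of 10 had an unadjusted p under 0.05. Cdc6, which passed the filter only through the control arrays, is among these 8, and the share of all genes at such a p was not computed for that fit. Without controls 14 and 15 the median was -0.40, and Mcm5 and Pcna passed while Cdca7 did not. That is 2 of 10 genes, against 0.306% of all genes tested that were called lower in that fit. Of the probe sets, 3 of 22 passed there (Mcm3, Mcm5 and Pcna), against 0.236% of all probe sets tested. The part that Trizol extraction, which the labels name for control 11 alone, had in these values was not tested.

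**Figure D3:**
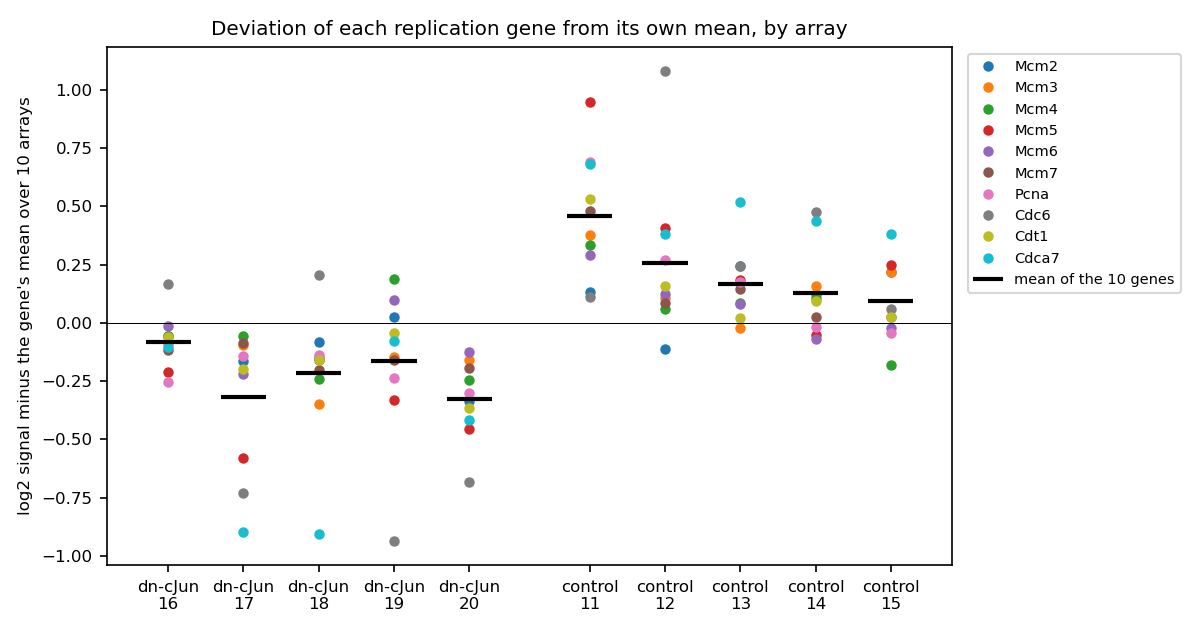
Each point is a gene's log2 signal on 1 array minus its mean over the 10 arrays, and black bars are the mean of the 10 genes. The bars lie between -0.33 and -0.08 for the arrays labelled dn-cJun and between 0.09 and 0.46 for the control arrays, with control 11 at the top.

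The promoters of these genes were searched for sequence motifs. Windows from 250 bases before to 50 bases after the annotated start of transcription, from RefSeq on GRCm38.p6, were matched by symbol for 9 of the 10 genes, all but Mcm4 (Mcm7 has a pair of starts, so there are 10 windows). They are shown for Cdca7, Mcm5, Mcm3, Mcm7 and Pcna, 5 of the 6 genes whose groups did not overlap, 5′ to 3′ on the strand of the gene. Capitals mark matches to the E2F motifs TTTCCCGC, TTTCGCGC, TTTGGCGC and TTTGCCGC on either strand, and the start of transcription is position 251 of each window.
Cdca7, chr2:72475969-72476268, plus strand: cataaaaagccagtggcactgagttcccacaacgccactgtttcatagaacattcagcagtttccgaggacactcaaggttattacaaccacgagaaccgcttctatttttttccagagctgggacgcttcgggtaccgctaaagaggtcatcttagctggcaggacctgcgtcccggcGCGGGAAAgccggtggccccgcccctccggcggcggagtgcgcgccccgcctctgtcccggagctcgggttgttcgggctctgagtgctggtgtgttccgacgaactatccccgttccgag
Mcm5, chr8:75109259-75109558, plus strand: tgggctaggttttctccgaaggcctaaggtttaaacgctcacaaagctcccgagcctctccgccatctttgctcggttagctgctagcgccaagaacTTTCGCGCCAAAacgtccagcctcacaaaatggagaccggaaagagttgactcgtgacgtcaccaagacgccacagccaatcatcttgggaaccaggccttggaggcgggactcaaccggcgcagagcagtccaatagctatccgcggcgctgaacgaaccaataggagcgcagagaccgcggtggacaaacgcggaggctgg
Mcm3, chr1:20820263-20820562, minus strand: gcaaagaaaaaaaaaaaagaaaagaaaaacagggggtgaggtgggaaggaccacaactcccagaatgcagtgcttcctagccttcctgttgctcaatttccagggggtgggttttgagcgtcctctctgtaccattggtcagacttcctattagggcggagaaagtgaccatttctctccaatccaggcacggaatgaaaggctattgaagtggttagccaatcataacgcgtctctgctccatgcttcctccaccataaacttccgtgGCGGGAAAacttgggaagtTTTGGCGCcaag
Mcm7, chr5:138171834-138172133, minus strand: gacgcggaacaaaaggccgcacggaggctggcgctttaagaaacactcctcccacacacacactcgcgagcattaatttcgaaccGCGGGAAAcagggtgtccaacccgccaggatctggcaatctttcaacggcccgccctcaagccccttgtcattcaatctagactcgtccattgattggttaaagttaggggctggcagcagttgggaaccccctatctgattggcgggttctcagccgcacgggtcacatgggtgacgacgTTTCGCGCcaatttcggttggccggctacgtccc
Pcna, chr2:132253131-132253430, minus strand: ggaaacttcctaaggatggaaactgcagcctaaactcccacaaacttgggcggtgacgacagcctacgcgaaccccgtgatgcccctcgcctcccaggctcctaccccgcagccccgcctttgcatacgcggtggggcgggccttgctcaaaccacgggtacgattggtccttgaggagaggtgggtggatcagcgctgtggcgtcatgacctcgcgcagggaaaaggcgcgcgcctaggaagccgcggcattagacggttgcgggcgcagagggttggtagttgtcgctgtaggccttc

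An E2F motif was found in 7 of the 9 genes (Mcm3, Mcm5, Mcm6, Mcm7, Cdc6, Cdt1 and Cdca7). That is 7 of the 10 windows, where 2.27% of all 32851 windows hold one. Cdca7 has 1 match, at positions 180 to 187. In Mcm5 a pair of matches on opposite strands overlaps between positions 98 and 109, and Mcm6 has such an overlapping pair between 141 and 152 and another match at 204 to 211. Mcm3 holds matches at 270 to 277 and at 289 to 296, just after the start of transcription, and Mcm7, in the window of its upstream start, at 86 to 93 and at 267 to 274. Mcm2 and Pcna had none of these letters in their windows. The AP-1 motif TGAGTCA, searched on both strands, was in none of the 10 windows and in 5.2% of all windows. The related motif TGACGTCA, which CREB and some AP-1 dimers bind, was in the window of Mcm5 alone, at positions 152 to 159, and in 1.79% of all windows. CCAAT was in 6 of the 9 genes, in 7 of the 10 windows, and in 37.4% of all windows. TTTGAA, a motif of mitotic genes, was in the window of Mcm2 and in 17.9% of all windows. Both were searched on either strand. In Mcm7 the last base of the second E2F match is the first of a CCAAT. A match is a description of the letters and does not show binding.

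**Figure D4:**
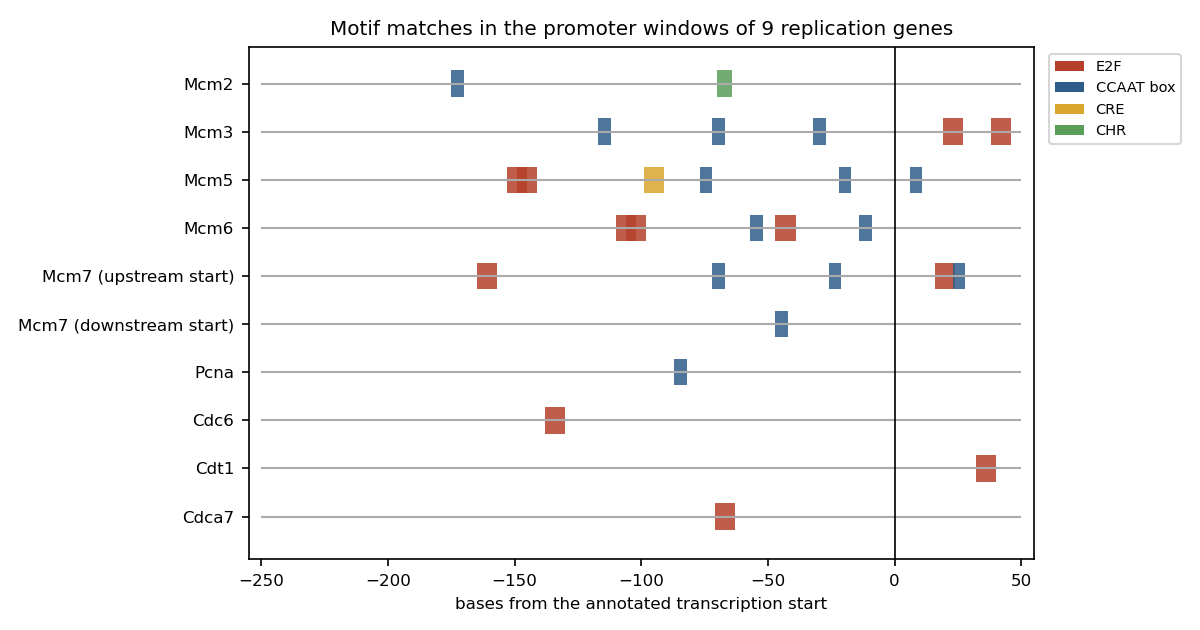
Lines are the promoter windows of 9 genes, from 250 bases before to 50 after the annotated start of transcription (vertical line), and coloured blocks are motif matches on either strand. CRE stands for TGACGTCA and CHR for TTTGAA. E2F matches appear in 7 of the 9 genes, on both sides of the start.

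Other genes of DNA replication showed lower means in part. Over 109 further genes tested, in 7 lists that also cover E2F factors and mitosis, 77 had lower means, with a median of -0.21, and 2 passed as lower and none as higher, where 0.432% of all genes tested passed as lower and 0.345% as higher. On the deposited scale, which put the median of all genes at -0.19, 103 of the 109 were lower. With all arrays 33 of the 109 were lower at an unadjusted p under 0.05, against 7.47% of all genes tested. Without control 11 that number was 22, with no share over all genes computed, and the median was -0.12, with 73 of 109 lower. Without controls 14 and 15 the median was -0.26, with 89 lower. Polh, a translesion polymerase that works with Pcna at damaged DNA, was the only one of 16 clamp loaders and clamp partners that passed (-1.34, SE 0.25, limma adjusted p = 0.0323). Its signal was 6.83, 6.42, 7.48, 7.52 and 6.79 in the arrays labelled dn-cJun 16 to 20, against 8.89, 7.97, 8.75, 8.03 and 8.08 in controls 11 to 15, with no overlap. Its other probe sets were all below the filter, and without controls 14 and 15 it missed the threshold (-1.52, limma adjusted p = 0.0507). The median of that list was -0.20, with 12 of 16 lower, and -0.26 without controls 14 and 15, with 15 of 16 lower.

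Origin recognition and licensing control had 12 of 16 genes lower, a median of -0.12 and no gene past the threshold. Lrwd1, which stabilizes the origin recognition complex, had the smallest p of that list, at -0.40 (SE 0.10, limma adjusted p = 0.0762). Mcm8, a relative of the helicase subunits that works in recombination, was at -0.80 (SE 0.24, limma adjusted p = 0.144), with no overlap between the groups. Gmnn, geminin, was at -0.16 (SE 0.08).

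For origin firing and the active helicase, 10 of 17 were lower, the median was -0.10 and no gene passed. Cdc7, among the lower, passed the filter only through the control arrays (mean of 5.91 in the arrays labelled dn-cJun). Ticrr, among the higher, passed it only through the arrays labelled dn-cJun (mean of 5.95 in the control arrays). Without controls 14 and 15, 14 of 17 were lower, with a median of -0.22. Wdhd1, which couples helicase and polymerase, was at -0.38 (SE 0.12, limma adjusted p = 0.175). Mcm10, which helps to activate the helicase, had the opposite sign, at 0.58 (SE 0.23, limma adjusted p = 0.270). Its signal was 12.17, 11.94, 12.07, 12.29 and 12.35 in the arrays labelled dn-cJun 16 to 20, against 11.56, 12.29, 12.13, 11.17 and 10.78 in controls 11 to 15. The lowest values were those of controls 14 and 15, and without these arrays the difference was 0.17.

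Polymerases, single-strand binding proteins and fork protection factors had 15 of 21 lower, a median of -0.12 and none past the threshold, with 8 lower at an unadjusted p under 0.05, and without controls 14 and 15 the median was -0.24. Pole2, a subunit of the leading-strand polymerase, was at -0.44 (SE 0.11, limma adjusted p = 0.0716), and Pold3, a subunit of the lagging-strand polymerase, at -0.33 (SE 0.10, limma adjusted p = 0.146). In both the groups did not overlap. Of the list of Cdca7 partners, genes that share the Cdca name, and maintenance methylation, 10 of 11 were lower with a median of -0.32, and none passed (9 of 11 lower and a median of -0.46 without controls 14 and 15). Uhrf1, which guides DNA methylation to newly replicated DNA, was at -0.63 (SE 0.14, limma adjusted p = 0.0576), Cdca2 at -0.56 (SE 0.17, limma adjusted p = 0.156), and Hells, the remodeller that Cdca7 activates, at -0.31 (SE 0.20, limma adjusted p = 0.50). Zbtb24 was the only higher gene of that list, at 0.13 (SE 0.13, limma adjusted p = 0.693), and Dnmt1 was at -0.08 (SE 0.09, limma adjusted p = 0.745).

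Of 13 E2F factors and pocket proteins tested, 3 were lower and 10 higher, with a median of 0.06 and none past the threshold. Without controls 14 and 15 that direction turned, with 8 of 13 lower and a median of -0.05. With the values as deposited 11 of 13 were lower, with a median of -0.15, but the median of all genes was -0.19 there. With equal array medians 6 of 13 were lower, with a median of 0.01, against -0.03 for all genes. With each array divided by its further factor (described under processing) 3 of 13 were lower, with a median of 0.04, against -0.01 for all genes. Rbl2, a pocket protein that represses E2F targets in resting cells, had the smallest p, at 0.29 (SE 0.09, limma adjusted p = 0.155), with all arrays labelled dn-cJun above the controls. E2f6, a repressor of the family, was at -0.19 (SE 0.10, limma adjusted p = 0.406). For mitotic markers 15 of 15 were lower with a median of -0.43, and Ccnb2, a mitotic cyclin, passed (-0.71, SE 0.13, limma adjusted p = 0.0323), at 9.89 to 10.57 in the arrays labelled dn-cJun and 10.77 to 11.27 in the control arrays. The median of that list was -0.61 without controls 14 and 15, and Ccnb2 then missed the threshold (limma adjusted p = 0.0508).

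**Figure D5:**
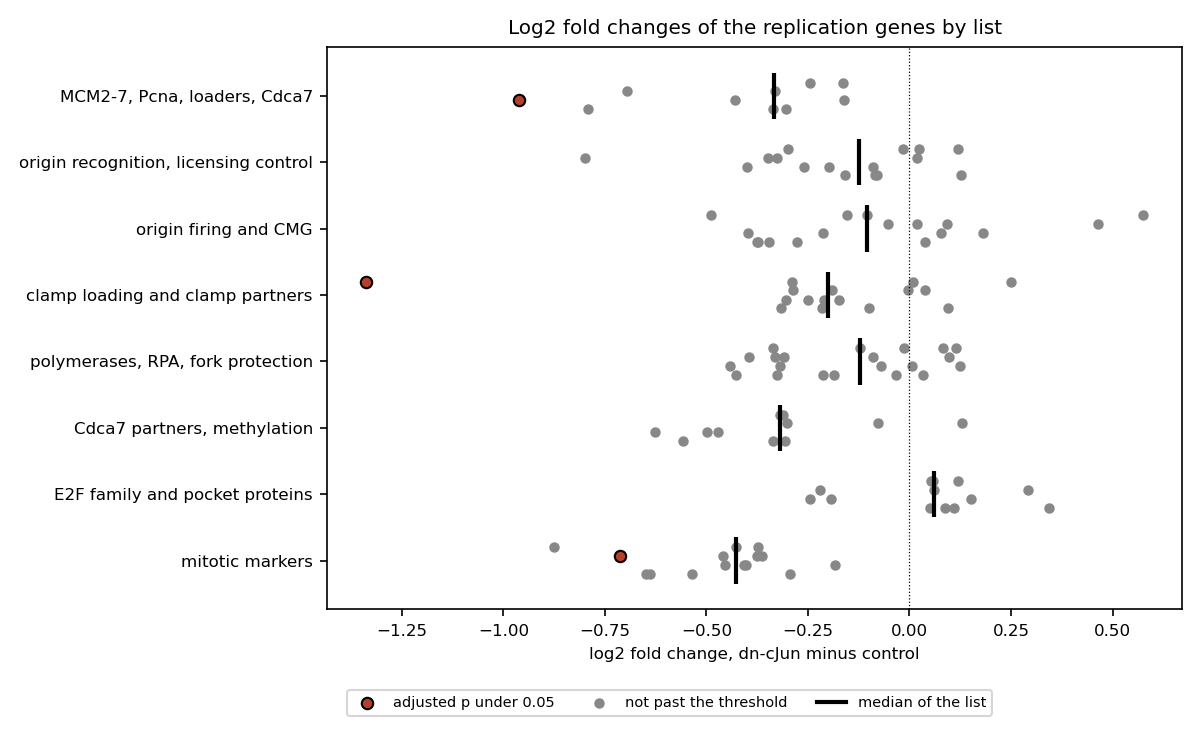
Points are log2 fold changes of single genes, arrays labelled dn-cJun minus control, in 8 lists, with black lines at the medians. The medians lie below 0 in 7 lists, from -0.43 for mitotic markers to -0.10 for origin firing, and at 0.06 for the E2F family. The sign of the E2F family turns without controls 14 and 15. It also turns with the values as deposited, to -0.15, where the median of all genes is -0.19. The 3 genes past the threshold are Cdca7, Polh and Ccnb2.

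By likeness over the 10 arrays, the genes outside the group whose signal most resembled the mean of Mcm2 to Mcm7 were Mmp13, a collagenase (Pearson r = 0.964, Spearman rho = 0.903), Prelid1, a lipid transfer protein of mitochondria (r = 0.957), Cenpe, a kinesin of the mitotic kinetochore (r = 0.956), Xpo1, the nuclear export receptor (r = 0.955), Hnrnpc, an RNA binding protein (r = 0.949), Dctn1, a dynactin subunit (r = 0.946), Nt5c2, a nucleotidase (r = 0.946), and Oip5, a centromere factor (r = 0.943). These were picked as the highest of all genes tested, so they are a description, given with no p. Both the difference between the groups and the height of control 11 enter r. Without control 11 and dn-cJun 20, the arrays farthest from the median, r of these 8 genes lay between 0.875 for Nt5c2 and 0.985 for Dctn1. On the same measure Cdt1 had r = 0.964, Pcna 0.913, Cdca7 0.871 and Cdc6 0.478. Mmp13 and Dctn1 passed as lower (-1.29, SE 0.22, limma adjusted p = 0.0232, and -0.58, SE 0.10, limma adjusted p = 0.0218). Further tested probe sets differed, with 0.05 for Dctn1, 0.06 for Hnrnpc and 0.11, 0.13 and 0.23 for Nt5c2. Those of Prelid1 gave -0.52, -0.45, -0.01 and 0.07. For Cenpe (-0.43) and Xpo1 (-0.30) the further tested probe set was also lower.

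Markers of other cell types were read as summed intensity after normalization. Macrophage and Kupffer cell markers had 8 of 12 lower, with Lyz2, lysozyme (-0.70, SE 0.13, limma adjusted p = 0.0294), and Cd5l, a secreted macrophage protein (-0.57, SE 0.11, limma adjusted p = 0.0323), past the threshold. Without controls 14 and 15, 5 of 12 were lower, and Cd5l missed the threshold (limma adjusted p = 0.105). Their summed intensity was 38300 to 44200 in the arrays labelled dn-cJun and 37100 to 56000 in the control arrays. T and NK cell markers summed to 1590 to 2560 in the arrays labelled dn-cJun and 1350 to 2340 in the control arrays, with 3 of 7 lower (1 of 7 without controls 14 and 15) and Cd3e, Cd2 and Cd4 below the filter. The B and plasma cell sum was 707 to 922 in the arrays labelled dn-cJun and 625 to 757 in the control arrays. For neutrophils and their precursors the sum was 7740 to 28500 in the arrays labelled dn-cJun and 4260 to 32300 in the control arrays, and for erythroid precursors 4040 to 6340 in the arrays labelled dn-cJun and 3860 to 5550 in the control arrays. No lymphoid, neutrophil or erythroid marker passed, and the ranges of all 5 sums overlapped between the groups. Hepatocyte markers summed to 439000 to 470000 in the arrays labelled dn-cJun and 401000 to 453000 in the control arrays, with control 11 lowest at 401000. Of the 11, 10 had higher means in the arrays labelled dn-cJun, with a median of 0.06, which was 0.34 with equal array medians, and none passed. The sums were 6440 to 7280 in the arrays labelled dn-cJun and 6120 to 6800 in the control arrays for endothelial markers. Stellate cell markers summed to 14000 to 15500 in the arrays labelled dn-cJun and 13900 to 16900 in the control arrays. Bile duct markers summed to 301 to 595 in the arrays labelled dn-cJun and 481 to 612 in the control arrays. Of these markers 4 of 5 were lower, with a median of -0.67 and none past the threshold. Among the lower, Krt19, Cldn7 and Krt7 passed the filter only through the control arrays. Their means in the arrays labelled dn-cJun were 5.98, 5.83 and 5.76, and the count and the median rest on them. The part of cell composition in the replication genes was not tested.

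RNA quality, read as the 3 prime minus 5 prime difference of control probe sets, overlapped between the groups, at -0.52 to -0.35 in the arrays labelled dn-cJun and -0.51 to -0.40 in the control arrays for Gapdh, and at 0.43 to 0.60 in the arrays labelled dn-cJun and 0.40 to 0.52 in the control arrays for Actb.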

How the data were processed

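Liver RNA of 10 mice was measured on 1 Affymetrix array each, 5 labelled dn-cJun and 5 control. The authors deposited 1 linear intensity per probe set, from software not named in the sources used here. Each array's values were whole multiples of 1 step, and dividing by a further factor (0.887 to 1.22, highest in control 11) gave equal trimmed means. Control probe sets (64) were left out after log2(intensity + 16) and quantile normalization, which was used because the array medians spanned 0.50. The probe set of highest mean stood for a gene, those under the 40th percentile were dropped, and 12736 of 18193 genes were tested with limma 3.58.1 in R 4.3.3 (lmFit, eBayes with an intensity trend, Benjamini-Hochberg adjustment). A second fit took each of 22847 single-symbol probe sets as the unit. The fit was tested on simulated data. Symbols follow the platform annotation (34945 probe sets with 1 symbol, 932 with several, 9160 with none), with 99.42% of entries matched to the GRCm38.p6 gene table by Entrez identifier. With no detection calls used, the number of arrays limits the precision. Figures were drawn with matplotlib 3.10.9.

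The members, gene lists, named genes and alternatives were chosen with earlier results of these data known. The named genes are the 10 members, the called genes or the 2 smallest p of each list, and the 8 genes most like Mcm2 to Mcm7. Gmnn, Hells, Zbtb24 and Dnmt1 were named after their values were seen. Alternatives covered scaling, pseudocount (1, 64), filter (none, 60th percentile), choice of probe sets, moderation, array weights, thresholds of 0.01 and 0.1, and arrays left out.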

Additional observations from a re-analysis of the deposited data

Results flagged for a closer look

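Values that stood apart from the other 4 arrays of their group by Dixon's gap test are given here. Chance alone marks about 1 in 20 groups, and 52 groups of member probe sets gave 5 such values, while 50 groups of other named genes gave 9. Control 11 was high for Cdt1 (1424143_a_at) at 11.39, against 10.88 to 11.02 in the other controls, and for Mcm7 (1438320_s_at) at 11.56, against 11.10 to 11.23. Control 12 was high for the dim Cdt1 probe set 1455791_at, at 4.88 against 4.12 to 4.27. For Mcm3, dn-cJun 18 was low at 1420028_s_at, with 8.96 against 9.15 to 9.22, and dn-cJun 17 was low at 1420029_at, with 5.51 against 6.35 to 6.67.

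Among other named genes control 11 was high in 8, with 9.06 for Pole2, 13.52 for Prelid1, 8.96 for Cenpe, 10.97 for Xpo1, 13.02 for Hnrnpc, 10.46 for Dctn1, 9.91 for Nt5c2 and 8.01 for Oip5. The last 7 were chosen for their likeness to the MCM genes over arrays that include control 11. Control 13 was low for Lrwd1, at 9.33 against 9.57 to 9.65 in the other controls.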

How the results depend on the processing

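Each of the 10 genes had a lower mean in the arrays labelled dn-cJun under each of the 20 alternatives that can move a fold change. The other 6, of threshold, filter or moderation, leave a fold change as it is, and the 60th percentile filter removed Cdc6. Calls were less stable. Of the member genes (1 called by limma over all arrays), 6 passed on the deposited scale, which put the median of all genes at -0.19, 2 each with equal array medians, without controls 14 and 15, with a term for these arrays and at a threshold of 0.1, and 0 each with no filter, in eBayes without trend and at a threshold of 0.01 (8 of 10 at an unadjusted p under 0.05 in each of the last 3). Leaving out 1 array gave 0 to 1, with the 1 call in the fit without control 12 (6 to 8 at an unadjusted p under 0.05 in the other 9). Of the member probe sets (2 called), 7 passed as deposited, 1 without names ending in _x_at or _s_at, and 0 each with no filter, without trend and at 0.01 (14 at an unadjusted p under 0.05), with 0 to 2 when 1 array was left out (2 without dn-cJun 16, 1 without control 12, and 0 in the other 8, with 11 to 14 at an unadjusted p under 0.05). Of the other replication genes (2 called), 11 passed as deposited, 8 with the term for controls 14 and 15, 6 at a threshold of 0.1, 1 each without controls 14 and 15 and without names ending in _x_at or _s_at, and 0 each without trend (27 lower at an unadjusted p under 0.05) and at 0.01 (33 lower), with 0 to 3 when 1 array was left out (0 without dn-cJun 17, 19 or 20 or control 11 or 13, with 20 to 28 lower at an unadjusted p under 0.05). The cause of these changes was not tested. The counts at an unadjusted p take in Cdc6 where it had such a p, although it passed the filter only through the control arrays. A share of all genes lower at such a p was computed for the fit of all arrays alone (7.47%), and none for probe sets, so the other counts have no background. Over all genes tested, 468 of 12741 were called lower as deposited, against 55 of 12736 after quantile normalization. The count was 45 of 12741 with equal array medians, 39 of 12758 without controls 14 and 15 and 95 of 12736 with the term for them. At a threshold of 0.1 it was 130 of 12736. It was 53 of 18193 with no filter, and 5 of 12736 both without trend and at a threshold of 0.01. With 1 array left out it ran from 10 of 12745 (without dn-cJun 17) to 102 of 12757 (without control 12). Over all probe sets tested, 646 of 22851 were called lower as deposited, against 103 of 22847 after quantile normalization. With 1 array left out that count ran from 29 of 22853 (without dn-cJun 17) to 137 of 22862 (without control 12). Among single genes, Cdca7 passed in 12 of 26 alternatives, Mcm5 in 5, Pcna in 3, and Mcm3, Mcm7 and Cdt1 in 1 each, with the values as deposited. No paired analysis was possible because the groups share no replicate numbers. The number of arrays, 5 a group, limits the precision.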

Other observations

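Several replication genes outside the 10 described had probe sets that differed in size. The second tested probe set of Uhrf1 gave a difference of -0.15, against -0.63 for the one used. For E2f6 the second gave -0.94, against -0.19, and for Rbl2 0.11, against 0.29. The second tested probe set of Mcm10 gave 0.54, close to 0.58 for the one used. Both tested probe sets of Cdca2 gave nearly the same difference (-0.56 and -0.58), as did those of Lrwd1 (-0.40 and -0.39). For Polh the probe sets below the filter gave -0.26, -0.40 and -0.71, against -1.34. These are differences given without a test, looked up after the comparison was seen.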
